A study of Arabidopsis thaliana with 6 samples.

Results

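Leucine-rich repeat receptor kinases are membrane proteins with an outer domain built of leucine-rich repeats and a kinase domain inside the cell. The loci described here were all those whose description in the deposited tables held both "leucine-rich" and "kinase", in any case of the letters, without 7 named immune receptors and co-receptors that the rule leaves out, 2 of which had such a description. This gave 150 of the 22183 loci of the tables, with 52 on chromosome 1, 20 on chromosome 2, 16 on chromosome 3, 20 on chromosome 4 and 42 on chromosome 5. The rule reads descriptions and no measured value, but loci without deposited values could not enter. It was set with earlier results of these data known. One of the 150, AT4G13215, is annotated as a pseudogene.

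The samples were leaves of 4-week-old, short-day-grown Arabidopsis plants, harvested 12 h after spraying with water or with 300 µM INA (2,6-dichloroisonicotinic acid, a synthetic analog of salicylic acid). The libraries were Col (wild type, water), Col+INA (wild type, INA), npr1-1+INA (the npr1-1 mutant, INA) and hac1/5+INA (the hac1-2 hac5-2 double mutant, INA). NPR1 is the transcriptional coactivator through which salicylic acid acts on most of its target genes, and HAC1 and HAC5 are histone acetyltransferases of the CBP/p300 family. Both mutants are in the Col background that the wild type has, and their water-treated libraries were not analysed here, so a difference between genotypes under INA cannot be told apart from one that was there before spraying. Each library was made from the combined RNA of 3 experiments, so there was 1 library per condition and no replicate. A comparison of 2 libraries therefore has no replicate check, and the intervals below (95%, exact Clopper-Pearson) cover counting error only. RNA was taken from whole leaves, where fewer cells of a type and less RNA per cell cannot be told apart.

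Library totals on gene models were close to each other, from 6698569 reads in npr1-1+INA to 7146973 in Col+INA. The mutated genes were read first. HAC5 gave 272 reads in Col and 122 in Col+INA, against 248 for npr1-1+INA and 2 for hac1/5+INA. The low HAC5 count in hac1/5+INA goes with the hac5-2 part of that label. HAC1 had 69, 28, 63 and 25 reads, and as reads outside an insertion do not check a label, its count leaves the hac1-2 part unchecked. NPR1 was read 286, 1115, 355 and 1476 times, and as npr1-1 is a point mutation this checks nothing either. PR1, the usual marker of the salicylic acid response, gave 4 reads in Col and 16158 in Col+INA, against 2 for npr1-1+INA and 96 for hac1/5+INA. All 5 photosynthesis genes used as leaf markers were high in every library, between 1708 and 58612 reads, and of the root hair, pollen and shoot meristem markers 1 gene, COBL9, was in the tables, with 1 read in npr1-1+INA and 0 in the others. Of the 5 leaf markers, 0 were called higher and 3 lower in Col+INA than in Col, 2 higher and 0 lower when npr1-1+INA was compared with Col+INA, and 1 higher and 2 lower when hac1/5+INA was, and the part of this in the values below was not tested.

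As background, the outer repeats of these receptors bind peptides, hormones or pieces of microbes, usually together with a shorter co-receptor of the same family, and the paired kinase domains then pass the signal on by phosphorylation. Family members sense bacteria in innate immunity, perceive brassinosteroid, and read growth peptides that set the size of meristems, the vascular cambium, stomatal spacing and organ abscission. Most active kinases carry an arginine just before the catalytic aspartate of the catalytic loop. Several immune receptors have another residue at that place, often cysteine, and many receptor-like kinases have lost conserved residues of the kinase domain and are called atypical kinases or pseudokinases.

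The catalytic loop was searched for in the RefSeq coding sequences (TAIR10.1) of the 149 members that have one, as a histidine or tyrosine, any residue, aspartate, a leucine, isoleucine, valine or methionine, lysine, any residue, any residue, and asparagine. In 74 members the residue before the aspartate was arginine, in 14 it was another residue, and in 61 no stretch matched. No match says only that these residues were not found in this spacing. The loops of 6 members that recur below are shown because they separate the first 2 classes, with the codon before the aspartate in capitals.
IOS1, chr1:19217167-19217190, plus strand: cacCGCgacattaagactactaac
AT1G51860, chr1:19258258-19258281, minus strand: catAGAgatgttaaaactactaac
AT1G56120, chr1:20988084-20988107, minus strand: cacAGAgatgtgaaggccagcaac
HAE, chr4:14080342-14080365, plus strand: cacCGCgatgtgaagtcgagtaac
AT3G47090, chr3:17342117-17342140, minus strand: catTGCgatcttaagccaagcaac
AT3G47570, chr3:17530119-17530142, plus strand: catTGCgatcttaagccaagcaac
The codon encodes arginine in the first 4 and cysteine in AT3G47090 and AT3G47570, which have the same 24 bases there.

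The 250 bases before the most upstream start of each locus (the start in the tables or in RefSeq) were searched on both strands for TGACG, the core of the sites that TGA factors bind, and for the W-box core read as TTGACC or TTGACT, which WRKY factors bind. The motifs share the letters TGAC, and matches may touch or overlap. Among all 21998 loci with such a window, 19.0% held TGACG and 28.3% held a W-box, against 19 (12.7%) and 52 (34.7%) of the 150 receptor kinases. The windows of 5 members are shown, of which 3 are neighbours with unlike reads and AT5G25930 and AT1G56120 had high ratios of Col+INA over Col, and capitals mark either motif on either strand.
AT1G51860, chr1:19261795-19262044, minus strand: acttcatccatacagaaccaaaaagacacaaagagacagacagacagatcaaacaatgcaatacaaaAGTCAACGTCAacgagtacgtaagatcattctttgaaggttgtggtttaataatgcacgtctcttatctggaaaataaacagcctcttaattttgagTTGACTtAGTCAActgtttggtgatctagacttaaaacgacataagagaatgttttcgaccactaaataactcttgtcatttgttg
AT1G51850, chr1:19256928-19257177, minus strand: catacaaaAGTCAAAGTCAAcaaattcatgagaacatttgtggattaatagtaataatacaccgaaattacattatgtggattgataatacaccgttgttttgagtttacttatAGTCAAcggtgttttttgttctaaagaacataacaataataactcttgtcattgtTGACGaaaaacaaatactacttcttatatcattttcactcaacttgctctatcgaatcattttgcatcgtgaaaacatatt
AT1G51805, chr1:19225798-19226047, minus strand: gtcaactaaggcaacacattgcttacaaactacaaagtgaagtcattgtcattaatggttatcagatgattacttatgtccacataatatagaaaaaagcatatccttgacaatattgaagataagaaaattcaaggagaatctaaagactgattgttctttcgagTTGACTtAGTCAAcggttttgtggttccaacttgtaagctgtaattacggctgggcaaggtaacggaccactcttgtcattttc
AT5G25930, chr5:9050410-9050659, plus strand: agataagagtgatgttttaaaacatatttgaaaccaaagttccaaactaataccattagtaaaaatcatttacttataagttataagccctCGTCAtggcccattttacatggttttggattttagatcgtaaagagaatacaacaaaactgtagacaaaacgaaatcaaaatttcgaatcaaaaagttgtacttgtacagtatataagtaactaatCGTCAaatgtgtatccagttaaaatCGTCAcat
AT1G56120, chr1:20993573-20993822, minus strand: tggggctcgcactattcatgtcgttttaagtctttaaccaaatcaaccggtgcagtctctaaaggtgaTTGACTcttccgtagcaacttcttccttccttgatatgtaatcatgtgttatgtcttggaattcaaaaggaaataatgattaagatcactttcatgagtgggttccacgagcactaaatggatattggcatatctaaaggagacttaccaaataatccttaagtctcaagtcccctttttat
The first 3 belong to neighbouring genes of 1 array on chromosome 1. AT1G51860 and AT1G51850 each held 1 TGACG and 3 W-boxes, AT1G51805 held 2 W-boxes and no TGACG, AT5G25930 held 3 TGACG and no W-box, and AT1G56120 held 1 W-box. A match is a description of letters and not of binding.

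In water-treated leaves the receptor kinases were moderately expressed genes, with a median of 2.30 RPKM (reads divided by gene model length and library size) in Col against 2.71 for all loci. Together they took 0.368% of the reads in Col and 0.459% in Col+INA, against 0.401% for npr1-1+INA and 0.541% for hac1/5+INA. At least 100 reads in at least 1 library were counted for 73 of the 150, and at least 20 for 108, while 15 had no more than 3 reads in every library. Among these 15 were the pollen receptor kinases PRK1 and PRK5. A count of 0 allows up to 3 reads in that library. The 11 members with several gene models in the tables had a median of 47 reads over the 4 libraries and the others a median of 291. Over all loci the same medians were 46 and 202, so levels of loci with several gene models are uncertain, and how reads shared by gene models were counted is not given in the sources used here.

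The 5 highest levels in Col were 61.0 RPKM for AT3G28040, 51.8 for AT2G45340, 48.7 for AT2G26730, 47.6 for BAM2 and 46.0 for AT1G29720. The last 3 of these lay within 3 RPKM of each other, and their order has no replicate behind it. BAM2, a receptor of CLE peptides in meristems and anthers, dropped out of this order in Col+INA, where it had 10.3 RPKM. The highest level in Col+INA was the 252 RPKM of AT1G35710, followed by 128 for MEE62 and 99.6 for AT1G56120, which had 1.30 RPKM in Col.

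**Figure D1:**
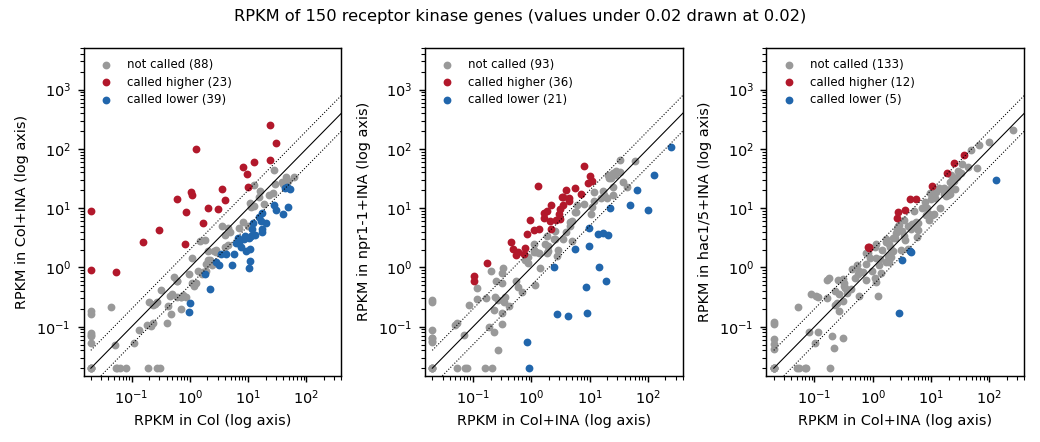
RPKM of the 150 receptor kinase genes in 2 libraries on log axes, for Col+INA against Col, npr1-1+INA against Col+INA and hac1/5+INA against Col+INA. Each point is 1 locus, the solid line marks equal values, the dotted lines mark 2-fold, and colours mark the 23, 36 and 12 loci called higher and the 39, 21 and 5 called lower.

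Between the Col and Col+INA libraries, members of the family differed in both directions. In Col+INA a set of receptor kinases linked to defence and a run of neighbouring genes on chromosome 1 had several times to many times the reads of Col, while a larger number of members, with developmental receptors among them, had fewer reads. A locus was called at an FDR of at most 0.01 with at least a 2-fold difference, by an exact, two-sided binomial test of its reads in 2 libraries, which speaks of those libraries and not of the conditions. Of 146 members with reads, 23 were called higher and 39 lower in Col+INA than in Col. Among all 21105 loci tested, 14.0% were called higher and 8.62% lower. The share of members called higher was thus close to the share of all loci, and the share called lower was about 3 times that of all loci. The median log2 ratio was -0.50 over the 150 members and -0.05 over all loci, with reads under 3 set to 3. With edgeR's exact test and a biological coefficient of variation set to 0.2, a value that no replicate measured, 17 members were called lower (3.47% of all loci), and with 0.4, 6 were called higher (2.01% of all loci) and 0 lower (0.142%).

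**Figure D2:**
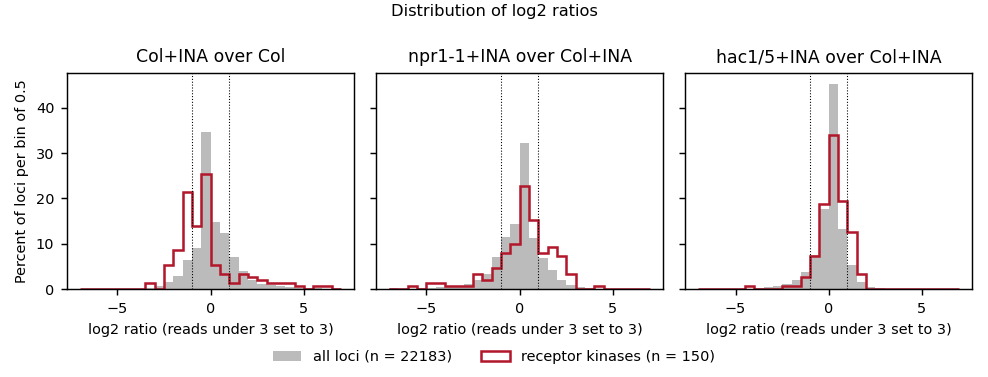
Distribution of log2 ratios in 3 comparisons, as the percent of loci per bin of 0.5, for the 150 receptor kinases (red line) and all 22183 loci (grey). Reads under 3 were set to 3 and dotted lines mark 2-fold. In Col+INA over Col the receptor kinases are shifted below all loci, with a thin tail above.

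The largest ratio belonged to AT1G56120, which lies at chr1:20987288-20993072 on the minus strand. It gave 28 reads in Col and 2238 in Col+INA, against 193 for npr1-1+INA and 2833 for hac1/5+INA. Both Col+INA and hac1/5+INA were high, Col was low and npr1-1+INA lay between them. The ratio of Col+INA over Col was 77.4 (53.4 to 117), that of npr1-1+INA over Col+INA 0.0920 (0.0790 to 0.107) and that of hac1/5+INA over Col+INA 1.30 (1.23 to 1.38).

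AT1G34420 gave 12 reads in Col and 296 in Col+INA, against 20 for npr1-1+INA and 204 for hac1/5+INA, a ratio of 23.9 (13.5 to 46.8) for Col+INA over Col. AT5G25930 had 24, 441, 13 and 885 reads in the same order, and its ratio was 17.8 (11.8 to 28.1). For both loci npr1-1+INA lay near Col. In hac1/5+INA AT5G25930 was called higher than in Col+INA, at 2.07 (1.84 to 2.32), and AT1G34420 stood at 0.709 (0.590 to 0.851), which was not called. AT1G35710 had the most reads of any member, with 604 in Col and 6576 in Col+INA, against 2592 for npr1-1+INA and 5234 for hac1/5+INA. AT1G35710 kept an intermediate level in npr1-1+INA, at 0.421 (0.402 to 0.440) of that in Col+INA, which was called lower.

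**Figure D3:**
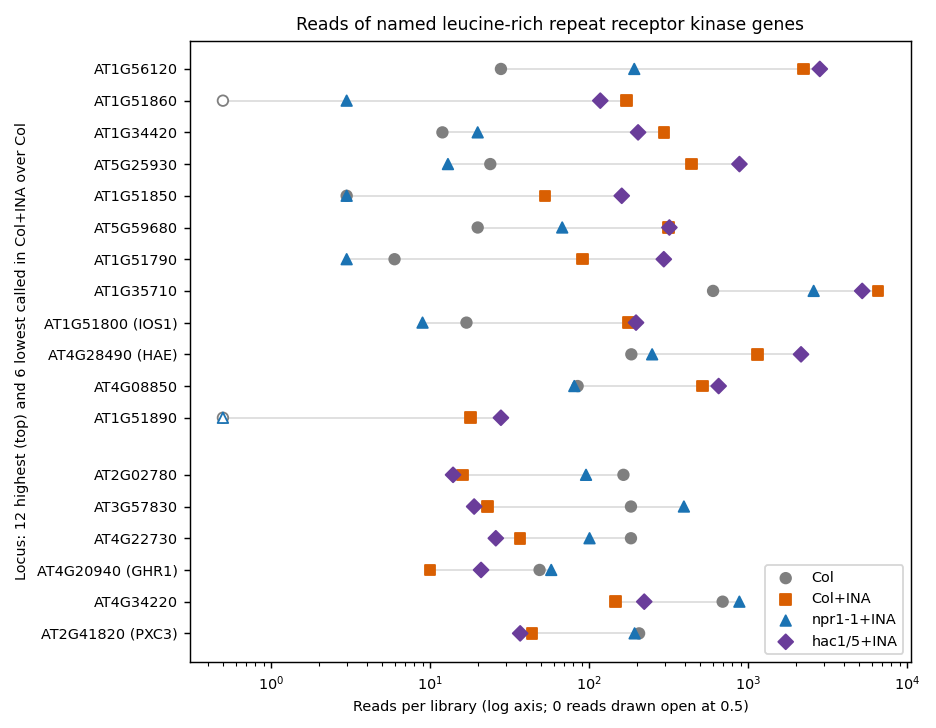
Reads in each of the 4 libraries, on a log axis, for the 12 members with the highest and the 6 with the lowest called ratio of Col+INA over Col. Open symbols at 0.5 stand for 0 reads. In the upper 12, Col+INA and hac1/5+INA lie to the right of Col and npr1-1+INA in every locus. In the lower 6 the order is turned, with npr1-1+INA and Col to the right.

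The receptor kinases of subfamily I, which have a malectin-like region next to their repeats, were the list with the largest number of members called higher. Of 18 members, 8 were called higher and 1 lower in Col+INA than in Col, and the list's median log2 ratio was 0.44 against -0.05 for all loci. The 1 gene of this list with values here but outside the description rule, FRK1, was called higher as well. Other genes of the list, among them AT1G51810, AT1G51830, AT1G51840, AT1G51870 and AT1G51880, have no deposited values and are not counted. Of the 8 members called higher, 6 were neighbours on chromosome 1, in an array of 7 members at chr1:19206711-19278528. Arrays were defined by gaps of less than 20 kb between consecutive members, so genes without values are left out of them. The family formed 10 such arrays with 32 members. Of the 32, 14 were called higher and 3 lower in Col+INA over Col, where 14.0% and 8.62% of all loci tested were.

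In this array AT1G51790 gave 6 reads in Col and 91 in Col+INA, against 3 for npr1-1+INA and 296 for hac1/5+INA. IOS1, which associates with immune receptors and their co-receptor and strengthens their response, had 17, 178, 9 and 198 reads. AT1G51850 had 3, 53, 3 and 161 reads. The order was alike in these 3 genes, with Col and npr1-1+INA at the bottom. AT1G51860 gave 0 reads in Col and 173 in Col+INA, against 3 for npr1-1+INA and 118 for hac1/5+INA, which made Col+INA at least 55.8-fold higher than Col against a floor of 3 reads. AT1G51890 had 0, 18, 0 and 28 reads, at least 5.81-fold higher, and AT1G51820 had 1, 16, 1 and 41. The neighbour AT1G51805 went another way, with 94 reads in Col and 51 in Col+INA, against 60 for npr1-1+INA and 64 for hac1/5+INA. Its log2 ratio of -0.93 for Col+INA over Col was not called. Its window and that of AT1G51860, printed above, both hold the run TTGACTtAGTCAA.

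Under INA the ratio of npr1-1+INA over Col+INA was 0.0352 (0.00712 to 0.106) for AT1G51790, 0.0539 (0.0243 to 0.105) for IOS1 and 0.0185 (0.00378 to 0.0550) for AT1G51860. The 3 reads behind the first and last of these make the intervals wide. In hac1/5+INA, by contrast, AT1G51790 was at 3.35 (2.64 to 4.28) times and AT1G51850 at 3.13 (2.28 to 4.35) times the level of Col+INA, and both were called higher. IOS1 was at 1.14 (0.930 to 1.41), an interval that includes 1. Neighbouring genes of such arrays are similar in sequence, and reads that fit several of them could have been split or dropped in the counting, so the values of each are uncertain to that extent.

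The other arrays of subfamily members were mixed. The array on chromosome 5, chr5:24031346-24050801, held 4 subfamily I genes. AT5G59680 gave 20 reads in Col and 318 in Col+INA, against 68 for npr1-1+INA and 321 for hac1/5+INA. AT5G59670 had 242, 1221, 1172 and 950 reads, so that it stayed high in npr1-1+INA, at 1.02 (0.944 to 1.11) times the level of Col+INA. The first gene thus had fewer reads in npr1-1+INA than in Col+INA, though more than in Col. The second, its neighbour, had about as many in npr1-1+INA as in Col+INA. AT5G59660 had 26, 51, 27 and 3 reads, the only gene of the array called lower when hac1/5+INA was compared with Col+INA, at a ratio of 0.0605 (0.0121 to 0.187). AT5G59650 had 16, 6, 10 and 5 reads and was not called. The ratio of Col+INA over Col was 15.4 (9.80 to 25.6) for AT5G59680, 4.89 (4.25 to 5.63) for AT5G59670 and 1.90 (1.16 to 3.17) for AT5G59660, the last not called.

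Subfamily VIII-2 groups relatives of RKF1 and LIK1, and RefSeq notes a malectin domain for its 12 members here and for no other member. In Col+INA over Col 2 of the 12 were called higher and 2 lower, with a median log2 ratio of -0.05, equal to that of all loci. AT1G56120, described above, was 1 of the 2, and its neighbours in an array of 4 at chr1:20987288-21014012 behaved differently. AT1G56130 gave 13 reads in Col and 13 in Col+INA, against 38 for npr1-1+INA and 19 for hac1/5+INA. AT1G56140 had 91, 84, 66 and 213 reads, and AT1G56145 had 1, 5, 0 and 1. Neither AT1G56130 nor AT1G56140 was called in Col+INA over Col. LIK1, which interacts with the chitin receptor CERK1, was the other, with 225 reads in Col and 907 in Col+INA, against 620 for npr1-1+INA and 1848 for hac1/5+INA. Its level in npr1-1+INA was 0.729 (0.657 to 0.809) of that in Col+INA, which was not called, and in hac1/5+INA it was 2.1 (1.94 to 2.27) times as high, which was called.

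**Figure D4:**
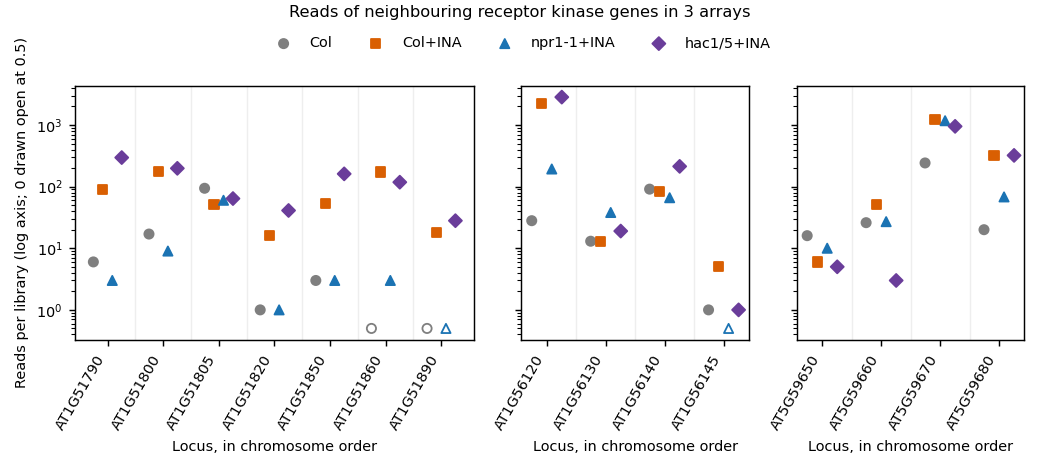
Reads in the 4 libraries, on a log axis, for the genes of the 3 arrays with 4 or more members, in chromosome order. Open symbols at 0.5 stand for 0 reads. In the left panel all of the 7 genes have Col+INA and hac1/5+INA far above Col and npr1-1+INA, except AT1G51805. In the middle panel this holds for AT1G56120 only, and in the right panel AT5G59670 keeps its reads in npr1-1+INA.

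Subfamily XII holds the relatives of the bacterial sensors FLS2 and EFR, and all 4 of its members here had a residue other than arginine before the catalytic aspartate. In Col+INA over Col 2 were called higher and 0 lower. AT3G47090 gave 43 reads in Col and 214 in Col+INA, against 47 for npr1-1+INA and 296 for hac1/5+INA, and AT3G47570 had 38, 132, 46 and 132. In both, npr1-1+INA was near Col. AT3G47580, next to AT3G47570 on chromosome 3, had 105, 108, 111 and 42 reads, the same number within counting error in the first 3 libraries and fewer in hac1/5+INA, at 0.40 (0.273 to 0.577) of the level in Col+INA, which was called. AT3G47110 had 4 to 9 reads in each library.

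Of 9 members on a list of receptors and regulators with a reported role in defence or stress sensing, 7 were called higher and 1 lower in Col+INA than in Col, with a median log2 ratio of 1.61. This list was put together with earlier results of these data known, and 6 more of its genes are in the tables but outside the description rule. Of those 6, BIR1 was called higher, NIK1, NIK3 and RKL1 were called lower, and NIK2 and RLK902 were not called, so over all 15 genes 8 were called higher and 4 lower, with a median log2 ratio of 1.15. IOS1 and LIK1 were given above. AT4G08850 gave 85 reads in Col and 517 in Col+INA, against 81 for npr1-1+INA and 655 for hac1/5+INA. AT5G49760 had 552, 1603, 461 and 2792 reads. AT1G74360 had 99, 353, 88 and 544 reads. In each of these 3, the reads of npr1-1+INA were at or just below those of Col. RLK7, the receptor of the defence peptide PIP1, had 19, 60, 23 and 89 reads, a ratio of 3.06 (1.80 to 5.43) for Col+INA over Col. BIR2, a kinase-dead receptor that holds the co-receptor BAK1 away from immune receptors, had 148, 339, 144 and 525 reads, a ratio of 2.22 (1.82 to 2.71). Not called was AT1G27190, with 190, 171, 149 and 298 reads. GHR1 was the 1 called lower. It is a kinase-dead receptor needed for stomatal closure, and gave 49 reads in Col and 10 in Col+INA, against 58 for npr1-1+INA and 21 for hac1/5+INA, a ratio of 0.198 (0.0893 to 0.395).

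A further list held 24 genes that work beside or downstream of such receptors or are related to them, none of them members. They were co-receptors, cytoplasmic kinases, the NADPH oxidases, ubiquitin ligases, peptide precursors and some others, with FRK1, counted above with subfamily I, among them. In Col+INA over Col 10 were called higher and 1 lower, where 14.0% and 8.62% of all loci tested were. In npr1-1+INA over Col+INA 2 were called higher and 10 lower, where 10.8% and 13.2% of all loci were. In hac1/5+INA over Col+INA 4 were called higher and 0 lower, where 3.87% and 5.85% of all loci were. PUB24, a ubiquitin ligase that restrains immune signalling, gave 47 reads in Col and 446 in Col+INA, against 69 for npr1-1+INA and 634 for hac1/5+INA. BIK1, a cytoplasmic kinase phosphorylated by receptor complexes, had 82, 223, 110 and 232 reads. Both were high in Col+INA and hac1/5+INA. The co-receptor SERK1 was the 1 called lower, with 30, 4, 38 and 8 reads.

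Receptors of development had more members called lower than higher, as the family as a whole had. Of 16 on that list, 1 was called higher and 5 lower in Col+INA than in Col, and the median log2 ratio was -0.87. A further 6 genes of the list fall outside the description rule, of which RPK1 was called higher and ERL2 lower. With them 2 of 22 were called higher and 6 lower, and the median was -0.75. The 1 member called higher was HAE, the receptor of the abscission peptide IDA, with 185 reads in Col and 1146 in Col+INA, against 250 for npr1-1+INA and 2159 for hac1/5+INA and a ratio of 6.0 (5.13 to 7.04). The 5 called lower were BAM2, BAM3, ER, SUB and PXC1. BAM2 had 1137, 253, 792 and 181 reads, a ratio of 0.215 (0.187 to 0.247). ER, which shapes inflorescences and spaces stomata, had 384, 90, 434 and 112 reads. SUB, an atypical kinase of organ and root hair patterning, had 225, 69, 293 and 123 reads. In these 3 genes Col and npr1-1+INA were high and Col+INA and hac1/5+INA low. BAM3, a CLE peptide receptor of the phloem, had 356, 165, 387 and 230 reads, with the same order. CLV1, the receptor that limits the stem cell pool of the shoot, had 948, 628, 884 and 493 reads, and PXY, the receptor that maintains the vascular cambium, had 177, 132, 177 and 120. The ratios of Col+INA over Col were 0.641 (0.579 to 0.710) for CLV1 and 0.722 (0.572 to 0.910) for PXY, neither called.

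Of 8 receptors of brassinosteroid and of growth or nutrient peptides, 0 were called higher and 2 lower in Col+INA than in Col, by the binomial test with the thresholds above. Another 4 genes of this list are not members because of their descriptions, and of these BRL3 and PSKR1 were called higher, PSKR2 was called lower and BRL2 was not called. Over all 12 genes 2 were called higher and 3 lower. The hormone receptor BRI1 gave 815 reads in Col and 1305 in Col+INA, against 626 for npr1-1+INA and 1435 for hac1/5+INA, a ratio of 1.55 (1.42 to 1.69) for Col+INA over Col, short of 2-fold. CEPR2, a receptor of nitrogen-demand peptides, had 315, 637, 406 and 1453 reads. Its ratio of 1.96 (1.71 to 2.25) for Col+INA over Col was just short of the 2-fold threshold, and hac1/5+INA was called higher than Col+INA, at 2.35 (2.14 to 2.58). CEPR1, its relative, had 883, 644, 814 and 770 reads and was not called, and PSY1R had 717, 655, 562 and 713. The 2 called lower were AT1G34110, with 175, 70, 154 and 125 reads, and AT4G26540, with 160, 65, 97 and 108.

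Of the 6 members with the lowest called ratios of Col+INA over Col, GHR1 was on the immune list and the other 5 were in none of these lists. AT2G02780 gave 165 reads in Col and 16 in Col+INA, against 96 for npr1-1+INA and 14 for hac1/5+INA, a ratio of 0.0939 (0.0524 to 0.157). AT3G57830 had 184, 23, 396 and 19 reads, a ratio of 0.121 (0.0749 to 0.187). In both, the libraries of INA-treated Col and hac1/5 were low, and in AT3G57830 npr1-1+INA lay above Col. AT4G34220 had 694, 147, 884 and 223 reads, AT4G22730 had 184, 37, 101 and 26, and PXC3, named for its co-expression with PXY, had 207, 44, 194 and 37. The 83 members in no list had 5 called higher and 28 lower, where 14.0% and 8.62% of all loci tested were. Their median log2 ratio was -0.88.

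Calls were also counted by the outcome of the catalytic loop search, in which no match is not a kind of loop. Of all loci tested, 14.0% were called higher and 8.62% lower in Col+INA than in Col. Of the 61 with no match, 6 were called higher and 23 lower. Their median log2 ratio was -0.88, the same as that of the members in no list. Of the 74 with arginine before the aspartate, 15 were called higher and 12 lower, with a median of -0.35. Of the 14 with another residue, 2 were called higher and 4 lower. The members with no match were thus 23 of the 39 members called lower (59.0%) and 6 of the 23 called higher (26.1%), and it was not tested whether this follows the loop or the subfamilies that share it. The 6 included BIR2, AT1G34420, AT1G35710 and MEE62.

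Motifs in the windows before the starts were counted by the same calls. A W-box was found for 15 of the 23 members called higher (65.2%), for 9 of the 39 called lower (23.1%) and for 28 of the 88 others (31.8%). Among all loci called higher in Col+INA over Col with a window, 37.9% held a W-box, among those called lower 24.9%, and among the others 27.0%. TGACG was found for 8 of the 23 (34.8%), 3 of the 39 (7.69%) and 8 of the 88 (9.09%). Over all loci the TGACG shares were 23.4% of those called higher, 17.8% of those called lower and 18.4% of the others. The genes of 1 array share sequence, and 5 of the 8 members with TGACG and 5 of the 15 with a W-box belonged to the chromosome 1 array of 7. Outside all arrays, 9 members were called higher, of which 5 held a W-box (55.6%) and 2 held TGACG (22.2%, near the share of all loci called higher).

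**Figure D5:**
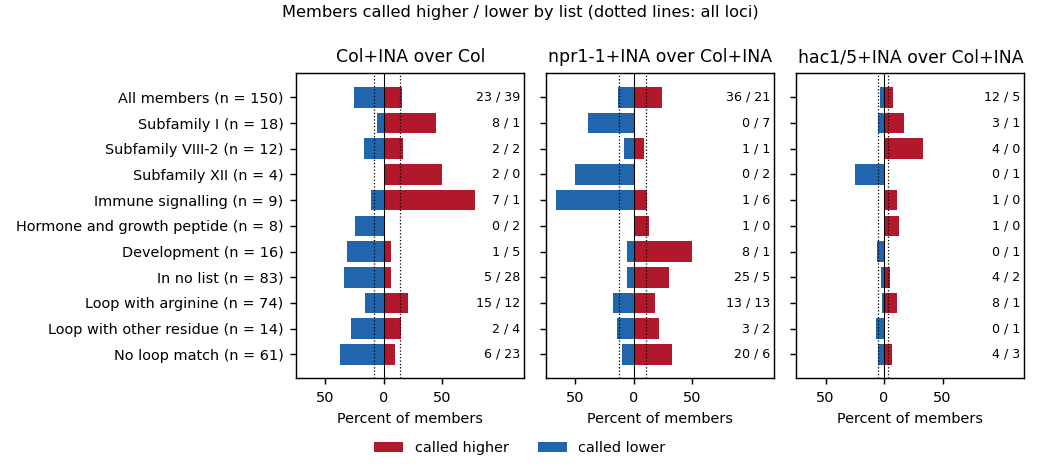
Percent of members called higher (red, to the right) and lower (blue, to the left) in each list, for 3 comparisons, with the counts higher / lower printed at the right of each panel. Lists hold members only, and dotted lines mark the same percent of all 22183 loci. Immune signalling and subfamily I receptors lean to the right in Col+INA over Col and to the left in npr1-1+INA over Col+INA. Developmental receptors lean the opposite way, as do all members together and the members in no list.

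Under INA in npr1-1, 6 of the 9 immune members were called lower than in Col+INA and 1 higher, while 8 of the 16 developmental members were called higher and 1 lower. Both comparisons contain the Col+INA library, so values that are high in it by chance are high against both of the others, and the reads of all libraries are therefore given side by side here. Of 146 members, 36 were called higher and 21 lower for npr1-1+INA over Col+INA, where 10.8% of all 21234 loci tested were called higher and 13.2% lower. The median log2 ratio was 0.24 for the members and 0.09 for all loci. With an assumed variation of 0.2, 21 were called higher (4.74% of all loci), and with 0.4, 1 was called higher (0.226%) and 5 lower (1.56%).

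AT3G57830 had the highest ratio of npr1-1+INA over Col+INA, 18.4 (12.1 to 29.3), and it was followed by AT4G34220 at 6.42 (5.38 to 7.69), AT2G02780 at 6.40 (3.75 to 11.6) and GHR1 at 6.19 (3.14 to 13.6). The intervals of the last 3 overlapped. ER was at 5.15 (4.09 to 6.53), SUB at 4.53 (3.47 to 5.98) and BAM2 at 3.34 (2.9 to 3.86). The developmental member called lower was HAE, and the list's median log2 ratio was 1.46, or 0.90 over all 22 genes of the list, of which 9 were called higher and 2 lower. At the other end, AT5G25930 was at 0.0315 (0.0166 to 0.0543), AT1G34420 at 0.0721 (0.0434 to 0.113) and AT1G51850 at 0.0604 (0.0121 to 0.186). The immune member called higher was GHR1, and over all 15 genes of that list 3 were called higher and 7 lower. Of the 18 members of subfamily I, 7 were called lower and 0 higher by the binomial test.

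Compared with water-treated wild type, few members, and few loci of any kind, were called in npr1-1+INA. Genotype and treatment both differ in this comparison, and their parts cannot be told apart. In npr1-1+INA over Col 9 of 143 members were called higher and 2 lower, where 3.83% of all 20869 loci tested were called higher and 1.79% lower. AT1G56120, AT1G35710, LIK1, AT5G59670, AT5G59680, AT3G57830 and AT1G56130, whose reads were given above, were among the 9, and the others were SKM1, a receptor of pollen tube growth, and AT1G62950. SKM1 gave 48 reads in Col and 30 in Col+INA, against 93 for npr1-1+INA and 30 for hac1/5+INA.

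In hac1/5+INA most receptor kinases were not called different from Col+INA, and neither were most of all loci. Of the 9 immune members, 1 was called higher and 0 lower, and their median log2 ratio was 0.67. Over all 15 genes of the immune list that median was 0.54. Of 144 members, 12 were called higher and 5 lower for hac1/5+INA over Col+INA, where 3.87% of all 20985 loci tested were called higher and 5.85% lower. The median log2 ratio was 0.17 for the members and 0.04 for all loci. Scaling by edgeR's TMM factors lowered each log2 ratio of this comparison by 0.11, and the split was then 9 higher and 6 lower, where 2.82% of all loci were called higher and 6.67% lower. With an assumed variation of 0.2, 1 member was called higher (0.538% of all loci) and 2 lower (2.38%), and with 0.4, 0 and 0. The same scaling lowered each log2 ratio of Col+INA over Col by 0.14, which gave 23 members called higher and 47 lower, where 11.8% of all loci were called higher and 10.5% lower.

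The 5 members called lower in hac1/5+INA were AT5G59660, MEE62, AT3G47580, PXC1 and AT2G27060. MEE62, named for an arrest of embryos in its mutant, gave 496 reads in Col and 2159 in Col+INA, against 572 for npr1-1+INA and 498 for hac1/5+INA. Only Col+INA was high for this gene, with the other libraries between 496 and 572 reads. Its ratio over Col+INA was 0.237 (0.215 to 0.262) in hac1/5+INA and 0.283 (0.257 to 0.310) in npr1-1+INA, and its ratio of Col+INA over Col was 4.22 (3.82 to 4.66). Its calls in all 3 comparisons rest on the 1 library of Col+INA. PXC1, a receptor of xylem fibre formation, had 167, 52, 103 and 21 reads, and AT2G27060 had 416, 111, 347 and 47, so that both were lowest in hac1/5+INA. Under an assumed variation of 0.2, MEE62 and AT5G59660 were the 2 that were still called.

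Among the 12 members called higher for hac1/5+INA over Col+INA were AT1G51790, AT1G51850, AT1G51820, AT5G25930, LIK1 and CEPR2, given above. Of subfamily VIII-2, 4 of 12 members were called higher and 0 lower, with a median log2 ratio of 0.54. AT1G53440 gave 131 reads in Col and 57 in Col+INA, against 62 for npr1-1+INA and 149 for hac1/5+INA, a ratio of 2.69 (1.97 to 3.72) in hac1/5+INA over Col+INA, with its level in hac1/5+INA near that in Col. AT1G56140 was at 2.61 (2.02 to 3.4). AT1G29730 had 40, 19, 24 and 47 reads and LIK1 was described above. AT5G14210 had 341, 98, 358 and 242 reads, and AT5G63410 had 191, 185, 133 and 413. The first had its lowest count in Col+INA, and the second had its highest in hac1/5+INA.

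Against water-treated wild type, hac1/5+INA had 28 of 145 members called higher and 35 lower, where 16.2% of all 21029 loci tested were called higher and 9.81% lower. Here too genotype and treatment both differ, and their parts cannot be told apart. The median log2 ratio was -0.20 for the members and -0.00493 for all loci. Subfamily I had 9 of 18 members called higher and 1 lower. The immune list had 7 of 9 members higher and 1 lower, with a median log2 ratio of 2.33. Over all 15 genes of the immune list 8 were called higher and 4 lower, with a median of 1.82. Developmental receptors had 1 of 16 members called higher and 4 lower, and over all 22 genes of that list 2 were higher and 5 lower.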

How the data were processed

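RNA-seq reads of leaves were used from 4 of the 6 conditions with RNA-seq libraries, and the water-treated npr1-1 and hac1/5 libraries were not analysed here. Per the study's methods, RNA of 3 experiments was combined into 1 library per condition, sequenced on an Illumina HiSeq instrument and aligned with SOAPaligner/soap2 allowing up to 2 mismatches. Per the labels the genome build was TAIR10. The annotation version, the strand setting and the counting of reads that fit several gene models are not given in the sources used here.

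The authors deposited 3 tables, each of 2 libraries, with raw read counts per gene model as whole numbers. Deposited beside the counts are RPKM values, the reads relative to gene model length and to the library's counted reads, with 0.001 written where the count is 0, which was read here as 0. The tables also hold the authors' own log2 ratio, direction, p-value and FDR, which were not used. The number of value columns without a sample was 0.

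Joined, they gave 25931 gene models of 22183 loci, and the gene model with the most reads stood for its locus. Read counts of 2 libraries were compared by a two-sided exact binomial test, conditional on their sum and scaled by library totals, with Benjamini-Hochberg adjustment over all loci with a read in either library. The thresholds (FDR at or under 0.01, absolute log2 ratio of 1 or more) follow the study's methods. Ratios have 95% Clopper-Pearson intervals. Folds against 0 reads use a floor of 3 reads. Medians of log2 ratios use counts of at least 3. The test was run on simulated counts with planted changes and counting error only, which says nothing of variation between experiments.

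Named members had at least 20 reads in at least 1 library and were the 12 highest and 6 lowest called in Col+INA over Col, the 4 highest and 6 lowest called in each mutant over Col+INA, the 5 highest RPKM in Col, and the named members of the immune, hormone and development lists. Array neighbours, AT5G59650 to AT5G59670, LIK1 as a called member of subfamily VIII-2, subfamily XII, AT5G14210, AT5G63410, AT1G56130, AT1G56140, AT1G29730 and AT1G62950 were chosen after their values were seen. Genes of the lists that are in the tables but outside the description rule are not members and are given by their calls. The members and lists were chosen with earlier results of these data known. Promoter windows and coding sequences were read from RefSeq (TAIR10.1), whose chromosomes carry the coordinates of the tables, and 40.8% of 22002 loci shared a start or end exactly.

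Alternatives were an FDR of at most 0.2, a 2-fold difference with no FDR, a log2 threshold of 1.5, edgeR's exact test with an assumed variation of 0.2 or 0.4, TMM factors, DESeq2's size factors, at least 10 reads in 1 library, log2(RPKM + 1), reads summed over gene models, and any gene model passing. edgeR 4.0.16 and DESeq2 1.42.0 ran in R 4.3.3, and the rest in Python 3.11.15 with SciPy 1.17.1, numpy 2.4.6, pandas 2.3.3, Biopython 1.88 and matplotlib 3.10.9.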

Additional observations from a re-analysis of the deposited data

How the results depend on the processing

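With 1 library per condition no replicate could be left out, and the counts of called members depend most on the variation assumed between experiments, which these data cannot measure. No paired analysis was possible because each condition has 1 library and no result has a replicate number to share. Counts within 1.5 times of those in the report are not repeated here, and the percent of all tested loci called under the same setting stands in parentheses. An FDR of at most 0.2 gave 21 members higher (6.88%) in hac1/5+INA over Col+INA and 5 lower (3.28%) in npr1-1+INA over Col. A 2-fold difference with no FDR gave 63 lower (20.4%) in Col+INA over Col, 30 higher (15.4%) and 15 lower (16.5%) in hac1/5+INA over Col+INA, and 19 higher (16.9%) and 12 lower (10.8%) in npr1-1+INA over Col. A log2 threshold of 1.5 gave 20 lower (4.92%) in Col+INA over Col, 2 higher (1.53%) and 2 lower (3.87%) in hac1/5+INA over Col+INA, 1 lower (0.824%) in npr1-1+INA over Col and 21 lower (7.04%) in hac1/5+INA over Col. edgeR's exact test with a variation of 0.2 gave 17 lower (3.47%) in Col+INA over Col, 21 higher (4.74%) in npr1-1+INA over Col+INA, 1 higher (0.538%) and 2 lower (2.38%) in hac1/5+INA over Col+INA, 3 higher (0.709%) and 0 lower (0.259%) in npr1-1+INA over Col, and 19 lower (5.48%) in hac1/5+INA over Col. With a variation of 0.4 it gave 6 higher (2.01%) and 0 lower (0.142%) in Col+INA over Col, 1 higher (0.226%) and 5 lower (1.56%) in npr1-1+INA over Col+INA, 0 higher (0.0143%) and 0 lower (0.152%) in hac1/5+INA over Col+INA, 0 higher (0.0719%) and 0 lower (0.00958%) in npr1-1+INA over Col, and 10 higher (1.85%) and 0 lower (0.865%) in hac1/5+INA over Col. On the log2(RPKM + 1) scale 2 were lower (5.26%) in hac1/5+INA over Col+INA and 0 lower (1.44%) in npr1-1+INA over Col. The 37 ratios of members named for their call were recomputed under 10 alternatives, and of the 370 values 329 were still called in the same direction, 41 were no longer called and 0 were reversed. Depth limits the 15 members with no more than 3 reads in every library, for which no difference was detectable.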
